A study of Rattus norvegicus with 8 samples.

Results

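The transcripts described here are those of 10 immediate early and dual-specificity phosphatase genes in the rat medial collateral ligament, which steadies the inner side of the knee: Fos, Jun, Junb, Egr1, Nr4a1, Atf3, Myc, Dusp1, Dusp5 and Dusp6. Every probe set whose only annotated symbol was 1 of these genes was taken, whatever its signal, which gave 24 of the 8799 probe sets on the array, for 10 of the 4737 genes that had a probe set of their own. Of these, 15 probe sets of 9 genes passed the filter on low signal and were tested. None of the 3 Dusp1 probe sets passed it. Each probe set is reported separately.

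The study hybridised total RNA from ligaments taken at 3 weeks to 8 oligonucleotide arrays, 2 in each of 4 groups. In unloaded healing rats the ligament was disrupted on both sides, and tail suspension, which lifts the hind legs so that they carry no weight, began 24 h after surgery. Loaded healing rats had the same bilateral disruption with no suspension stated. Unloaded control rats were tail suspended and had no sham surgery. Loaded control rats had sham surgery and no suspension stated, so suspension and sham surgery cannot be told apart between the control groups. An injury effect below means healing against control ligaments. It is set against sham surgery in loaded rats and against no sham surgery in unloaded rats. A difference of the injury effects therefore also carries the difference in sham surgery, which cannot be told apart from that of suspension. Strain, sex and age are not given in the labels, nor is it stated if 2 arrays of 1 group come from different animals, pools or 1 sample. The p-values therefore measure the spread between arrays, which may be technical.

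Immediate early genes are transcribed within minutes of a growth factor or a mechanical stimulus, without new protein synthesis, largely through MAP kinases that act on serum response factor and its partners at a DNA element called the CArG box. Their products, such as the Fos and Jun proteins that pair into the factor AP-1, then act on later genes, in fibroblasts among them matrix proteases. Dual-specificity phosphatases remove phosphate from MAP kinases, and several are themselves induced by the pathway that they switch off. The comparisons ask how these load- and injury-responsive genes stood 3 weeks after injury, long after the first response to it.

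Promoter sequences were at hand for 6 of the 10 genes in RefSeq (rat assembly GRCr8): Junb, Egr1, Nr4a1, Dusp1, Dusp5 and Dusp6. Dusp5 and Egr1 are shown because they were the 2 of these 6 promoters that held a CArG box, searched on both strands, and because Dusp5 has the only call among the members. Each line gives the 250 bases before the start of the gene, 5′ to 3′, with the CArG boxes in capitals.
Dusp5 promoter, GRCr8 chr1:262543524-262543773, plus strand: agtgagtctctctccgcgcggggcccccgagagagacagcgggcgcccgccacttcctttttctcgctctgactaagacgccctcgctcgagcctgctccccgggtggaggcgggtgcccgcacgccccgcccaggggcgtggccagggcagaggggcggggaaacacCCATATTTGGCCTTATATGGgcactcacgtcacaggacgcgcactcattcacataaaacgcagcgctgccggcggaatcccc
Egr1 promoter, GRCr8 chr18:26736828-26737077, plus strand: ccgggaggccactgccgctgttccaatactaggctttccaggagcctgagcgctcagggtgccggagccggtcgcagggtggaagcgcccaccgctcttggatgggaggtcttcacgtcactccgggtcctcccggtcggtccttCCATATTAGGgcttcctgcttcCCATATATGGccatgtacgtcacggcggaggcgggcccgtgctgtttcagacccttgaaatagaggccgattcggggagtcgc
The boxes of Dusp5 begin 82 and 72 bases before the start, directly next to each other, and those of Egr1 begin 105 and 83 bases before it. In windows of 300 bases, 250 before the start and 50 after it, 1.64% of 33469 rat promoters held a CArG box. The cyclic AMP response element TGACGTCA was found in 1 of the 6 promoters, that of Dusp1, beginning 124 bases before the start, and in 1.83% of all promoters. The AP-1 motif TGANTCA was found in 0 of the 6 and in 7.33% of all. These matches describe the letters of the windows and are not measured binding.

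Signals are linear intensities, and a log2 difference below is that of log2(signal + 45.8), given with its standard error (SE) from limma and, for a call, an adjusted p under 0.05. Across probe sets, the log2 signals of both unloaded control arrays correlated with those of the other 6 at r = 0.492 to 0.608, against 0.761 to 0.872 within those 6. Their actin 5′/3′ control ratios were 0.964 and 0.634, against 0.237 to 0.529 elsewhere. The GAPDH 5′/3′ ratios did not set them apart, at 0.953 and 0.712 against 0.729 to 0.896 elsewhere. The summed signal of 22 probe sets of 10 ligament fibroblast genes was 98100.1 to 125161.3 in unloaded healing, 148138.1 to 175453.4 in loaded healing, 12740.0 to 13278.9 in unloaded control and 172399.6 to 198514.7 in loaded control ligaments. The Col1a1 probe set M27207mRNA_s_at alone supplied 84665.6 and 73916.0 of the loaded healing sums. Of 21 tested fibroblast probe sets, 18 were called lower in the unloaded control group than in the loaded one. In loaded healing against loaded control 5 were called lower and 0 higher. Some fibroblast markers, such as Lum, read higher on the loaded healing arrays than on the loaded control arrays. The 20 probe sets of 12 macrophage genes summed to 10984.5 to 11677.3 in unloaded healing, 30737.6 to 34266.9 in loaded healing, 9477.1 to 10011.3 in unloaded control and 9140.6 to 9671.8 in loaded control ligaments. The 12 probe sets of 12 skeletal muscle genes summed to 13681.5 to 16119.2 in unloaded healing, 15679.3 to 20406.8 in loaded healing, 6685.9 to 7135.4 in unloaded control and 11954.8 to 12164.6 in loaded control ligaments. The ligament markers Tnmd, Scx and Mkx were not analysed here. In whole tissue, fewer cells of a type and less RNA per cell cannot be told apart. The part of these differences in the results below was not tested.

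**Figure D1:**
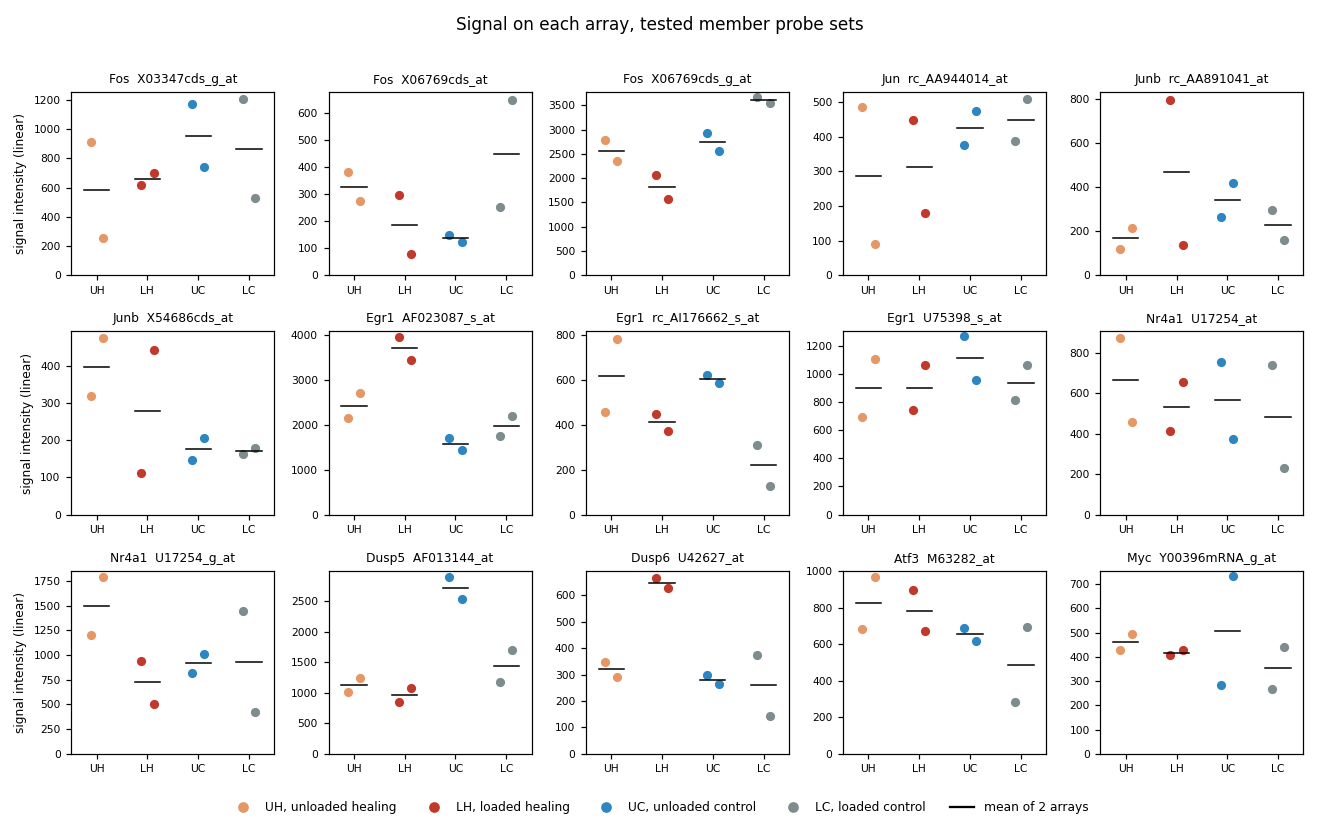
Linear signal intensity of the 15 tested member probe sets on each of the 8 arrays, 1 panel each with an axis from 0, with unloaded healing (UH), loaded healing (LH), unloaded control (UC) and loaded control (LC) from left to right; points are arrays and bars are means of 2 arrays. Dusp5 is highest on both unloaded control arrays, at 2526.4 and 2894.0, and the brightest Fos probe set is lowest on both loaded healing arrays, at 1574.8 and 2074.4.

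Among the phosphatases, Dusp5, a nuclear phosphatase of the kinase ERK, was the gene with the only call. Its probe set AF013144_at read 1004.2 and 1240.4 in unloaded healing, 853.8 and 1069.8 in loaded healing, 2894.0 and 2526.4 in unloaded control, and 1169.1 and 1690.5 in loaded control ligaments. Both unloaded control arrays lay above all the others, while the 2 healing groups overlapped each other. Dusp5 fell 2.37-fold in unloaded healing against unloaded control ligaments (log2 difference -1.24 ± 0.28 SE, 95% confidence interval -1.86 to -0.62, limma adjusted p = 0.0206). It was the 1 of 15 tested member probe sets called in that comparison, in which 7.46% of all 5244 tested probe sets were called and 1.05% were called lower. Its log2 difference of unloaded control against loaded control was 0.92 ± 0.28, with an adjusted p of 0.0930, and these groups did not overlap.

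The call for Dusp5 rests on the unloaded control arrays, whose log2 signals and marker sums differed from the rest as described above. Without unloaded control 1 the adjusted p was 0.144, without unloaded control 2 it was 0.0759 and without unloaded healing 1 it was 0.107, with log2 differences from -1.34 to -1.10. A variance estimate that does not follow mean intensity gave 0.0828. In loaded rats Dusp5 was lower in healing than in control ligaments without overlap, by a log2 difference of -0.54 ± 0.28 that missed the threshold (adjusted p = 0.528) and was -0.15 with spike-in scaling. The injury effects in unloaded and loaded rats differed by -0.71 ± 0.39 on the log2 scale, which also missed it (adjusted p = 0.524). Unloaded healing ligaments differed from loaded control ligaments by -0.32 ± 0.28 (adjusted p = 0.953).

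Dusp6, which dephosphorylates ERK in the cytoplasm, stood the other way in loaded rats. Probe set U42627_at read 349.4 and 290.2 in unloaded healing, 666.9 and 626.9 in loaded healing, 299.1 and 263.4 in unloaded control, and 373.5 and 144.1 in loaded control ligaments. Both loaded healing arrays lay above the other 6. The log2 difference of unloaded healing against loaded healing was -0.93 ± 0.51 (adjusted p = 0.579). That of loaded healing against loaded control was 1.30 ± 0.51 (adjusted p = 0.332), so neither passed in this comparison of the loaded healing group. The summed macrophage signal was also highest in that group, with Lyz2 alone supplying 16260.4 and 13978.0 of sums of 34266.9 and 30737.6. Against loaded control, 4 of 11 tested macrophage probe sets were called higher and 0 lower. Some macrophage markers, such as Csf1r, read lower on the loaded healing arrays than on the loaded control arrays. A link between these markers and Dusp6 was not tested. The other Dusp6 probe set, X94185cds_s_at, stayed below the filter at 49.0 to 152.6 and correlated with the first at r = -0.28 over the 8 arrays.

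Dusp1, a nuclear phosphatase of p38, JNK and ERK and an immediate early gene itself, was dim on all 3 of its probe sets. S74351_s_at read 28.0 to 61.1 and U02553cds_s_at read 136.7 to 243.5 over the 8 arrays. S81478_s_at read 52.9 and 23.7 in unloaded healing, 282.1 and 397.9 in loaded healing, 38.0 and 74.1 in unloaded control, and 276.2 and 81.9 in loaded control ligaments. On that probe set the loaded healing arrays lay above the other 6. In a fit without the filter its log2 difference of unloaded healing against loaded healing was -2.20 ± 0.56, with an adjusted p of 0.175. The other pair of Dusp1 probe sets did not share this pattern, and correlations between the 3 ran from -0.29 to 0.24.

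Fos, the AP-1 subunit that pairs with Jun proteins, had a lower mean in loaded healing than in loaded control ligaments on all 3 of its probe sets, with 0 of 3 past the threshold. Only on the brightest did the groups not overlap. The log2 difference was -1.14 ± 0.66 on X06769cds_at (limma adjusted p = 0.590) and -0.27 ± 0.57 on X03347cds_g_at (adjusted p = 0.940). Over the alternative fits the latter ran from -0.83 to 0.30. The brightest, X06769cds_g_at, read 2783.5 and 2344.7 in unloaded healing, 2074.4 and 1574.8 in loaded healing, 2932.1 and 2567.1 in unloaded control, and 3664.2 and 3541.0 in loaded control ligaments. Both loaded healing arrays were below all others and both loaded control arrays above all others. The log2 difference of loaded healing against loaded control was -0.98 ± 0.22 (95% confidence interval -1.46 to -0.49), a 1.97-fold difference with an adjusted p of 0.0553. A larger offset, 183.2, gave -0.93 with an adjusted p of 0.0468, and scaling to the spike-in controls gave -0.58 with an adjusted p of 0.40. In unloaded rats the log2 difference of healing against control on the same probe set was -0.10 ± 0.22 (adjusted p = 0.835), which was -0.69 with quantile normalization (adjusted p = 0.0555) and 0.10 with median centring.

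The same Fos probe set was higher in unloaded healing than in loaded healing ligaments by a log2 difference of 0.49 ± 0.22 (adjusted p = 0.449), a difference of 0.00 when arrays were scaled to the spike-in controls. The injury effect in unloaded rats minus that in loaded rats was 0.88 ± 0.31 (adjusted p = 0.219), and 0.19 with quantile normalization (adjusted p = 0.831). The second Fos probe set, X06769cds_at, read 382.6 and 273.6 in unloaded healing, 295.6 and 79.0 in loaded healing, 150.9 and 124.7 in unloaded control, and 251.5 and 648.8 in loaded control ligaments. Its difference of the injury effects was 2.15 ± 0.93 (adjusted p = 0.365), in the direction of the first. The third, X03347cds_g_at, gave -0.59 ± 0.80 (adjusted p = 0.840), and its 8 values ran from 258.4 to 1205.6 with overlap between the healing groups.

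Jun, the partner of Fos in AP-1, had 4 probe sets, of which 1 was tested. The tested probe set, rc_AA944014_at, read 484.3 and 88.9 in unloaded healing, 447.4 and 178.4 in loaded healing, 376.9 and 472.6 in unloaded control, and 388.7 and 507.1 in loaded control ligaments. The arrays of each healing group lay far apart, and its log2 difference of loaded healing against loaded control was -0.56 ± 0.69 (adjusted p = 0.872). A probe set below the filter, rc_AA945867_at, read 65.5 and 195.8 in unloaded healing, 184.4 and 232.5 in loaded healing, 39.5 and 30.1 in unloaded control, and 33.9 and 52.0 in loaded control ligaments. On it both healing groups lay above both control groups. Without the filter its difference of loaded healing against loaded control was 1.52 ± 0.46 (adjusted p = 0.252). Also below the filter, rc_AI175959_at read 65.9 and 120.9 in unloaded healing and 158.4 and 402.6 in loaded healing ligaments. Without the filter that log2 difference was -1.15 ± 0.54 (limma adjusted p = 0.584). On X17163cds_s_at, below the filter as well, both loaded control arrays, at 69.6 and 71.0, lay below all others. Its difference of loaded healing against loaded control was 0.39 ± 0.47 without the filter (adjusted p = 0.902). The Jun probe sets differed in sign in loaded healing against loaded control, and 4 of their 6 pairwise correlations over the arrays were negative.

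Junb, an AP-1 subunit that can oppose Jun, gave 2 probe sets that disagreed. X54686cds_at read 319.5 and 475.7 in unloaded healing, 110.9 and 445.2 in loaded healing, 147.1 and 206.1 in unloaded control, and 162.6 and 180.6 in loaded control ligaments. The unloaded healing arrays lay above both control groups, with a log2 difference of 0.99 ± 0.63 against unloaded control (adjusted p = 0.435). rc_AA891041_at gave -0.87 ± 0.74 in the same comparison (adjusted p = 0.564), and its highest array was loaded healing 1 at 798.1, beside 137.9 on loaded healing 2. Over the 8 arrays the Junb probe sets correlated at r = -0.67.

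**Figure D2:**
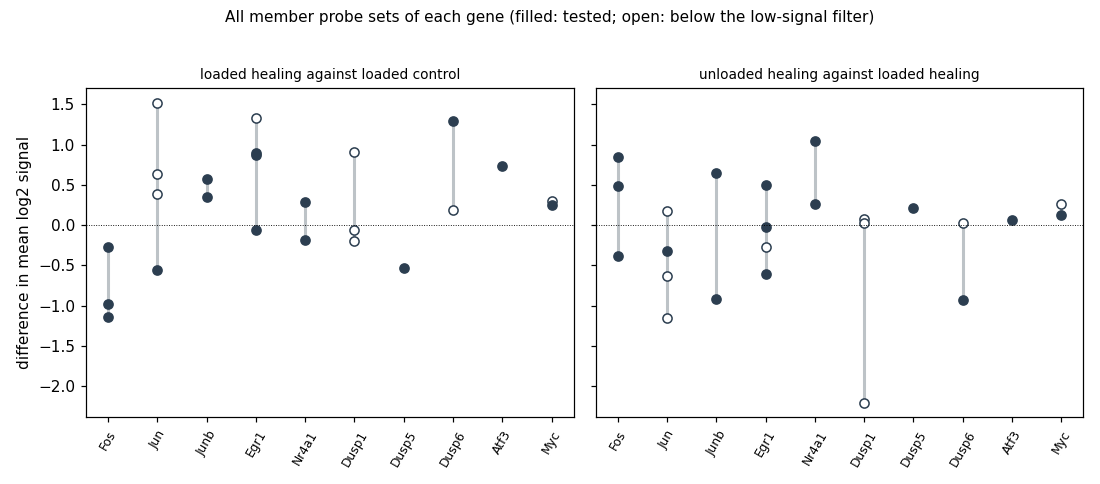
Difference in mean log2 signal for all 24 member probe sets by gene, in loaded healing against loaded control (left) and unloaded healing against loaded healing (right); filled points were tested and open points lay below the filter. The points of Jun fall on both sides of 0 in both panels, while the 3 Fos points lie below 0 in loaded healing against loaded control.

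Egr1, a zinc finger factor induced by growth factors and strain, was higher in healing ligaments on its brightest probe set without passing the threshold. AF023087_s_at read 2136.3 and 2701.4 in unloaded healing, 3944.8 and 3447.0 in loaded healing, 1707.8 and 1430.6 in unloaded control, and 1750.0 and 2191.8 in loaded control ligaments. Both loaded healing arrays lay above the other 6, and unloaded healing lay above unloaded control without overlap. The log2 difference of loaded healing against loaded control was 0.90 ± 0.23 (95% confidence interval 0.38 to 1.41, adjusted p = 0.108). That of unloaded healing against unloaded control was 0.61 ± 0.23 (adjusted p = 0.182) and that of unloaded healing against loaded healing was -0.61 ± 0.23 (adjusted p = 0.338), and -1.10 with spike-in scaling (adjusted p = 0.0959). The injury effects differed by -0.29 ± 0.33 between unloaded and loaded rats (adjusted p = 0.799).

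The other Egr1 probe sets followed the first in part. In loaded healing against loaded control, rc_AI176662_s_at and M18416_at were also higher without overlap, and U75398_s_at was not. rc_AI176662_s_at read 455.9 and 783.3 in unloaded healing, 447.9 and 373.4 in loaded healing, 621.4 and 588.2 in unloaded control, and 311.9 and 125.5 in loaded control ligaments. Loaded control was the lowest group on it, with a log2 difference of 0.88 ± 0.50 for loaded healing against loaded control (adjusted p = 0.583) and of 1.39 ± 0.50 for unloaded control against loaded control (adjusted p = 0.164). U75398_s_at read 694.3 to 1273.3 over the 8 arrays, with a log2 difference of -0.06 ± 0.35 for loaded healing against loaded control (adjusted p = 0.982). M18416_at, below the filter, read 474.2 and 178.9 in unloaded healing, 316.7 and 422.9 in loaded healing, 94.3 and 66.9 in unloaded control, and 246.9 and 45.6 in loaded control ligaments. As on the first probe set, both healing groups lay above unloaded control there, and the log2 difference of loaded healing against loaded control was 1.33 ± 0.69 without the filter (adjusted p = 0.612). Of the 6 pairwise correlations between Egr1 probe sets over the 8 arrays, 3 were negative, and they ran from -0.59 to 0.57, the highest being that of M18416_at with AF023087_s_at.

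Nr4a1, an orphan nuclear receptor of the early response, was measured above the filter on both of its probe sets. U17254_g_at read 1205.5 and 1786.6 in unloaded healing, 944.1 and 501.6 in loaded healing, 817.1 and 1015.7 in unloaded control, and 1447.8 and 422.4 in loaded control ligaments. Unloaded healing lay above loaded healing and above unloaded control without overlap, with a log2 difference of 1.04 ± 0.52 against loaded healing (adjusted p = 0.547). U17254_at gave 0.27 ± 0.59 in the same comparison (adjusted p = 0.928), with overlap. On both probe sets the loaded control arrays lay far apart, at 740.1 and 228.1 on U17254_at.

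Atf3, a stress-induced member of the ATF family, read 680.4 and 966.9 in unloaded healing, 893.3 and 669.6 in loaded healing, 689.7 and 619.3 in unloaded control, and 280.8 and 695.5 in loaded control ligaments (M63282_at). Loaded control 1 was the lowest array, and the other 7 lay between 619.3 and 966.9. The log2 difference of loaded healing against loaded control was 0.74 ± 0.44 (adjusted p = 0.615). Myc, a growth-promoting factor of the early response, read 427.2 and 494.6 in unloaded healing, 406.0 and 428.6 in loaded healing, 283.9 and 732.1 in unloaded control, and 266.5 and 438.6 in loaded control ligaments (Y00396mRNA_g_at). The healing arrays lay within the range of the unloaded control arrays, and the largest log2 difference between groups was 0.38 ± 0.51, for unloaded control against loaded control (adjusted p = 0.741). The other Myc probe set, Y00396mRNA_at, stayed below the filter at 12.8 to 105.5.

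**Figure D3:**
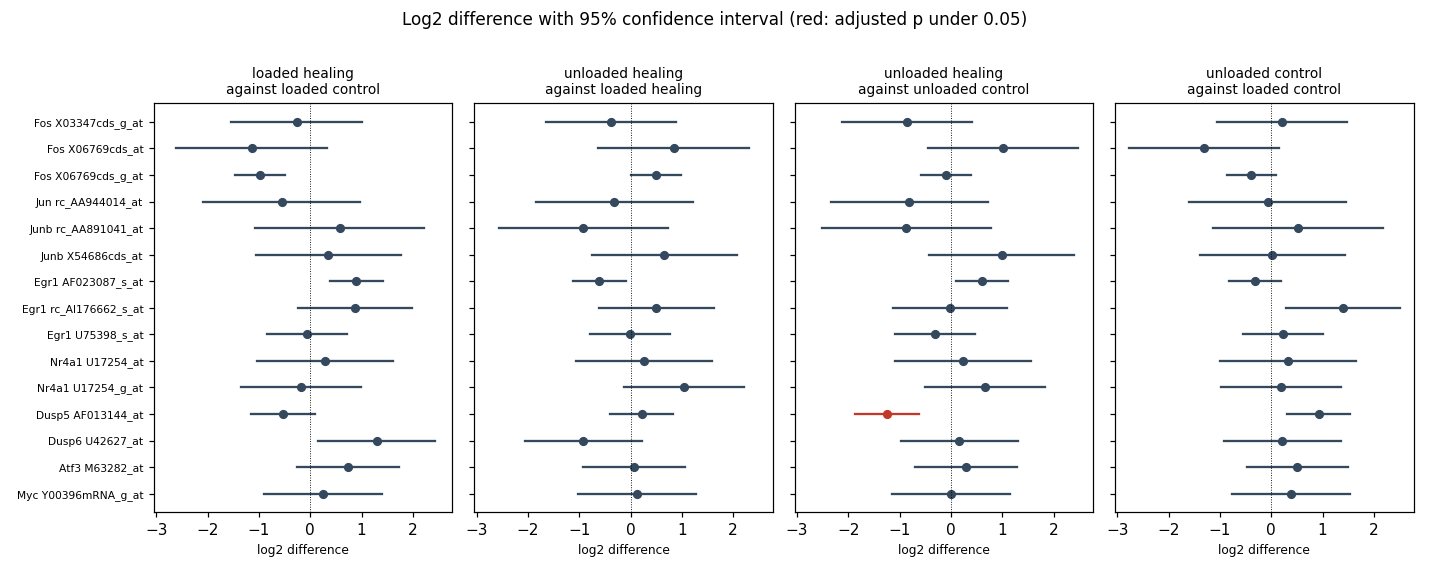
Log2 differences of the 15 tested member probe sets with 95% confidence intervals from limma, in 4 comparisons, on an axis in log2 units, with the called difference in red. The interval of Dusp5 in unloaded healing against unloaded control runs from -1.86 to -0.62, and that of the brightest Fos probe set in loaded healing against loaded control from -1.46 to -0.49.

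The members' counts are set beside the share of all tested probe sets in each comparison. In loaded healing against loaded control, limma called 0 of 15 member probe sets and 2.02% of all tested ones. At an unadjusted p under 0.05 there were 3 of 15 members, on Fos, Egr1 and Dusp6, against 11.7% of all. In unloaded healing against loaded healing, limma called 0 of 15 members and 1.62% of all, with 2 of 15 against 10.9% at the unadjusted p. In unloaded healing against unloaded control, 2 of 15 members, Dusp5 and Egr1, had an unadjusted p under 0.05, against 19.1% of all.

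Between the control groups, limma called 0 of 15 members and 6.81% of all for unloaded against loaded control, and 2 of 15 against 17.8% at the unadjusted p. In unloaded healing against loaded control it called 0 of 15 and 0.0763% of all, with 2 of 15 against 5.55% at the unadjusted p. For the difference of the injury effects it called 0 of 15 and 4.84% of all, with 2 of 15 against 12.9%, both on Fos. These comparisons share arrays and are not independent of each other.

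The groups did not overlap for 10 of all 24 member probe sets in loaded healing against loaded control, where 37.7% of all probe sets did not. The counts were 8 of 24 for unloaded healing against loaded healing, against 38.5%, and 11 of 24 for unloaded healing against unloaded control, against 47.9%. They were 9 of 24 for unloaded control against loaded control, against 47.7%, and 7 of 24 for unloaded healing against loaded control, against 31.8%. With 2 arrays in a group, separation is common in these data, and the members separated at shares near those of all probe sets. The median log2 difference of the 15 tested members was 0.25 in loaded healing against loaded control, beside -0.03 over all tested probe sets. It was 0.13 beside 0.06 in unloaded healing against loaded healing and 0.21 beside 0.23 in unloaded control against loaded control. In unloaded healing it was -0.002 beside -0.23 against unloaded control and 0.29 beside 0.008 against loaded control.

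The wider pathway was read from 3 lists. Of 61 other immediate early and early response genes, 32 genes with 49 probe sets were tested. In unloaded healing against unloaded control, limma called 1 of these probe sets higher (Tsc22d1) and 1 lower (Homer1), 4.08% against 7.46% of all tested. There 6 of 49 had an unadjusted p under 0.05, against 19.1% of all. Between the controls it called 1 higher in unloaded control (Homer1), 2.04% against 6.81% of all. At the unadjusted p there were 8 of 49 between the controls, against 17.8%. In loaded healing against loaded control it called 0, against 2.02%, with 4 of 49 against 11.7% at the unadjusted p. In unloaded healing against loaded healing it called 0, against 1.62%, with 5 of 49 against 10.9%. In unloaded healing against loaded control there were 0 by either, against 0.0763% and 5.55% of all.

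Homer1, a synaptic scaffold gene whose short form is an immediate early transcript in neurons, fell in unloaded healing against unloaded control ligaments on 1 of its 5 tested probe sets. The other tested ones gave log2 differences of -0.31, -0.28, 0.06 and 0.53 there (limma adjusted p 0.573 to 0.962). Which form each probe set reads was not tested. AB007688_s_at read 71.8 and 166.9 in unloaded healing, 586.0 and 548.1 in loaded healing, 1428.4 and 1228.6 in unloaded control, and 72.6 and 434.2 in loaded control ligaments. Unloaded control was the highest group and unloaded healing lay below both loaded healing and unloaded control. The log2 difference of unloaded healing against unloaded control was -3.12 ± 0.65 (adjusted p = 0.0140), and without unloaded control 1, unloaded control 2 or unloaded healing 1 the adjusted p was 0.0797 to 0.115. Unloaded control against loaded control was 2.52 ± 0.65 (adjusted p = 0.0474), which missed the threshold without loaded control 1, loaded healing 1, loaded healing 2, unloaded control 1 or unloaded control 2, with a difference of 1.51 without loaded control 1. Apart from leaving out single arrays, that Homer1 call between the controls held in 5 of 11 alternatives. It was lost among others with median centring (limma adjusted p = 0.0504) and without the filter (0.0834). Tsc22d1, a leucine zipper protein induced by transforming growth factor beta, read 1652.4 and 1392.0 in unloaded healing, 1826.5 and 1717.1 in loaded healing, 646.2 and 734.3 in unloaded control, and 1174.7 and 1639.6 in loaded control ligaments. It rose in unloaded healing against unloaded control by 1.09 ± 0.27 (adjusted p = 0.0371), with 0.0648 to 0.170 when any array other than those of the loaded control group was left out.

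Among the other dual-specificity and MAP kinase phosphatases, 7 of 22 listed genes were on the array and 5 were tested, each with 1 probe set. Ptp4a2, a small membrane-bound phosphatase tied to proliferation, was the 1 called, lower in unloaded control against loaded control. There 6.81% of all tested probe sets were called. In each of the 3 comparisons with a healing group against its control or against the other healing group, 0 of 5 were called. The shares of all called there were 1.62% to 7.46%. In each of these 1 of 5 had an unadjusted p under 0.05, against 10.9% to 19.1% of all. Unloaded healing against loaded control had 0 by either, against 0.0763% and 5.55% of all. Ptp4a2 read 980.8 and 976.0 in unloaded healing, 400.4 and 461.9 in loaded healing, 283.8 and 481.5 in unloaded control, and 1079.4 and 1051.2 in loaded control ligaments. Unloaded healing and loaded control were the high groups. It fell in unloaded control against loaded control by 1.41 on the log2 scale (SE 0.36, adjusted p = 0.0458), a call that ended without any 1 array other than unloaded control 2.

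Of 63 listed genes of the MAP kinase cascade, which runs from Ras through MEK to ERK and its parallel branches, 23 genes with 33 probe sets were tested. Limma called 1 higher in loaded healing against loaded control, 1 higher in unloaded healing against unloaded control and 1 lower in unloaded control against loaded control. Each is 3.03% of the 33, against 2.02%, 7.46% and 6.81% of all tested probe sets. At an unadjusted p under 0.05 there were 5, 5 and 4 of 33, against 11.7%, 19.1% and 17.8%. In unloaded healing against loaded healing it called 0, against 1.62%, with 4 of 33 against 10.9% at the unadjusted p. In unloaded healing against loaded control it called 0, against 0.0763%, with 1 of 33 against 5.55%. Map2k1, which encodes the ERK kinase MEK1, read 216.2 and 189.6 in unloaded healing, 861.4 and 916.8 in loaded healing, 135.9 and 189.5 in unloaded control, and 142.9 and 156.6 in loaded control ligaments on L04485mRNA_s_at. Only the loaded healing arrays were high on it. Map2k1 rose 4.78-fold in loaded healing against loaded control (log2 difference 2.26 ± 0.48, adjusted p = 0.0487), and leaving out any 1 of the 8 arrays ended the call, with adjusted p from 0.0615 to 0.254. Apart from leaving out single arrays, the Map2k1 call held in 3 of 11 alternatives. It was lost among others with quantile normalization (limma adjusted p = 0.0568) and median centring (0.0690). The log2 difference of unloaded healing against loaded healing was -1.91 ± 0.48 (adjusted p = 0.105). The other tested Map2k1 probe set, rc_AI178835_at, gave -0.08 ± 0.39 in loaded healing against loaded control (adjusted p = 0.982).

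Map2k2, which encodes MEK2, read 1969.8 and 1861.1 in unloaded healing, 2468.6 and 2843.6 in loaded healing, 774.8 and 764.3 in unloaded control, and 1536.0 and 1818.3 in loaded control ligaments on rc_AA963674_g_at. Unloaded control was the lowest group. Map2k2 rose in unloaded healing against unloaded control by 1.27 ± 0.23 (adjusted p = 0.00567), a call that held when each array was left out in turn and reached 0.0569 with spike-in scaling. It fell in unloaded control against loaded control, with a log2 difference of -1.07 ± 0.23 (adjusted p = 0.0171), which missed the threshold without loaded control 2, unloaded control 1 or unloaded control 2 (adjusted p 0.0640 to 0.113). The other tested Map2k2 probe set, L14936_at, gave 0.20 ± 0.61 in unloaded healing against unloaded control (adjusted p = 0.889). Every call in that comparison uses the unloaded control arrays by construction. On them Homer1 and Dusp5 read higher than in unloaded healing ligaments, and Tsc22d1 and Map2k2 read lower. The fibroblast marker sum was lowest on the same arrays, and a link to these calls was not tested.

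**Figure D4:**
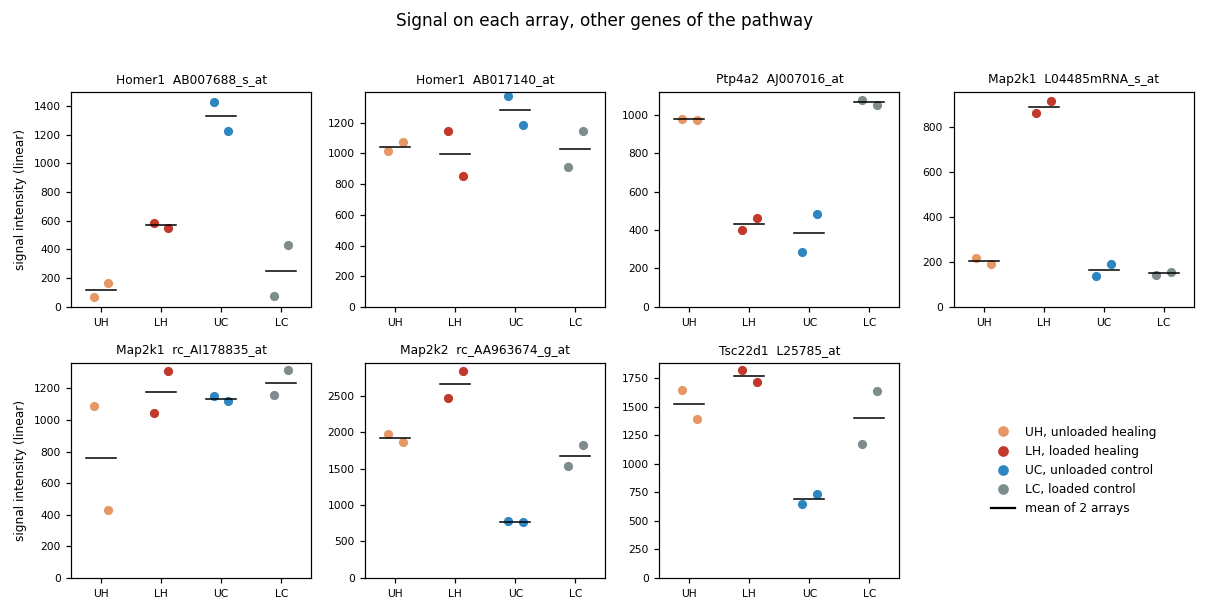
Linear signal intensity on each array for 7 probe sets of the wider pathway, 1 panel each with an axis from 0, with unloaded healing (UH), loaded healing (LH), unloaded control (UC) and loaded control (LC) from left to right; points are arrays and bars are means of 2 arrays. Map2k1 reads 861.4 and 916.8 on the loaded healing arrays and at most 216.2 on the other 6, and Homer1 is highest on the unloaded control arrays.

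The pattern of the brightest Fos probe set over the 8 arrays was most like those of Ager, Ergic1 and Unc5b, with Pearson r of 0.93, 0.93 and 0.92 on log2 signals. Over the 6 arrays other than unloaded control the closest were Ergic1 at 0.996, Btg3 at 0.987 and Col1a1 (Z78279_at) at 0.984. Other Col1a1 probe sets differed. On rc_AI231472_s_at loaded healing also lay below loaded control. On Z78279_g_at and the brightest, M27207mRNA_s_at, these groups overlapped, the latter at 84665.6 and 73916.0 against 75948.8 and 59573.3. Ergic1 was among the 3 closest both times. It read 2854.4 and 2439.9 in unloaded healing, 2367.1 and 1904.9 in loaded healing, 2637.4 and 3122.2 in unloaded control, and 3354.6 and 3233.8 in loaded control ligaments. These points share the arrays, and the 3 closest were picked from all single-symbol probe sets, so the correlations describe likeness only.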

How the data were processed

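The authors deposited 1 linear intensity for each of 8799 probe sets on 8 arrays. These had been scaled before deposit, as array means without the top and bottom 2% ran from 500.26 to 500.582. The scaling software is not given in the sources used here. The number of unused sample columns was 0.

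The array's probe table gave 7018 probe sets a single symbol, 308 more than 1 and 1473 no symbol, and 6994 were matched by Entrez identifier to RefSeq's GRCr8 gene table, which changed 0 symbols. After removal of 59 control probe sets, an offset of 45.8 (the 10th percentile) was added, log2 was taken, and the 40% with the lowest mean were filtered out, leaving 5244. The offset shrinks the differences of dim probe sets. Group means were estimated by limma 3.58.1 (R 4.3.3), its empirical Bayes step following intensity (4 residual and 5.81 prior degrees of freedom), two-sided, with Benjamini-Hochberg adjustment over the 5244 within each comparison. The number of arrays limits the precision. The fit was tested on simulated data.

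All member probe sets are named. From each list, up to 4 called probe sets per comparison with the largest change are named, and for likeness the 3 closest to the brightest member. Members and lists were chosen with earlier results of these data known. Promoters are RefSeq's. Alternatives covered scaling, offset, filter, variance prior, a replicate term, the compared groups alone, no unloaded controls and each array left out.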

Additional observations from a re-analysis of the deposited data

Results flagged for a closer look

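The brightest Fos probe set, X06769cds_g_at, was higher in unloaded than in loaded healing ligaments and lower in unloaded than in loaded control ligaments, with no overlap in either pair. The log2 differences were 0.49 in healing and -0.39 in control ligaments. The difference between them was tested as the interaction, 0.88 ± 0.31, and missed the threshold (limma adjusted p = 0.219). These differences depend on the scaling: with quantile normalization the control difference turned to 0.25 and the interaction was 0.19 (adjusted p = 0.831), and with spike-in scaling the healing difference was 0.00.

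A single Homer1 probe set and the Ptp4a2 probe set, from the lists of related genes, differed between loaded and unloaded rats in their injury effects. On the other tested Homer1 probe sets the unloaded minus the loaded effect was 0.19, -0.23, 0.32 and 0.40 (limma adjusted p 0.871 to 0.928). For Homer1 (AB007688_s_at) the effect in unloaded rats minus that in loaded rats was -4.48 ± 0.92 on the log2 scale (adjusted p = 0.0166), and the adjusted p was 0.0556 to 0.0878 without loaded healing 1, loaded healing 2, unloaded control 1, unloaded control 2 or unloaded healing 1. For Ptp4a2 it was 2.52 ± 0.51 (adjusted p = 0.0156), with 0.0525 to 0.0652 without any 1 array other than loaded healing 2 and unloaded control 2, and 0.123 with spike-in scaling. With 2 arrays in a group, single arrays were not examined as outliers.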

How the results depend on the processing

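Of the 1878 recomputed values of 99 single results, 1801 kept their sign where called and their side of the threshold, 74 lost a call, 3 gained one and 0 reversed. Most of the 99 were not called in the main fit and had no call to lose, so the 74 all fall on the few that were. Apart from the fits with 1 array left out, Map2k1 in loaded healing against loaded control stayed called in 3 of 11 alternatives. Homer1 stayed called in 5 of 11 between controls and in 11 of 11 in unloaded healing against unloaded control. A further count of 86 values without a call changed sign. In loaded healing against loaded control the members called numbered 0, and 1 with an offset 4 times as large, the Fos probe set X06769cds_g_at. In unloaded healing against unloaded control there was 1, Dusp5, and 0 with a variance prior without trend. Leaving out 1 array gave 0 to 1 there. In unloaded control against loaded control there were 0, and 1 with quantile normalization, Dusp5 at 1.42 (adjusted p = 0.00780). Dusp5 in unloaded healing against unloaded control was called in 15 of 19 alternatives, with log2 differences from -1.71 to -1.04.

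The labels give no basis for pairing arrays by replicate number. Same-numbered deviations correlated at 0.000779 to 0.204, above 0 in all 6 group pairs and over 0.1 in the 3 without unloaded control, so pairing was not taken as shown, and whether numbers mark a shared batch was not tested. With the replicate number as a block, 1 member was called in loaded healing against loaded control, the same Fos probe set (adjusted p = 0.0309), and the counts of members in the other comparisons stayed as they were. Scaling to 6 spike-in control probe sets moved the median of all tested probe sets to 0.34 in loaded healing against loaded control, -0.40 in unloaded against loaded healing, -0.40 in unloaded healing against unloaded control and 0.32 between controls. Calls over all probe sets ran from 27 to 126 in loaded healing against loaded control (106), 16 to 137 in unloaded against loaded healing (85), 306 to 627 in unloaded healing against unloaded control (391), 281 to 590 between controls (357), 0 to 7 in unloaded healing against loaded control (4) and 215 to 331 for the interaction (254). A group reduced to 1 array was taken to have the spread of the other groups.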
